A study of Mus musculus with 6 samples.

Results

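Dendritic and postsynaptic density mRNAs were followed through a ribosome pulldown from mouse hippocampus. They comprised 9 genes, Camk2a, Camk2b, Nrgn, Dlg4, Shank1, Shank3, Homer1, Map2 and Ddn, taken by gene symbol from the 15388 genes of the deposited table. Each symbol matched 1 gene, and all 9 passed the filter on low reads. The mice carried Cx3cr1-cre/ERT2, a tamoxifen-dependent Cre recombinase expressed from the promoter of the microglial receptor gene Cx3cr1, together with NuTRAP, a reporter that after recombination puts GFP on ribosomes and a separate tag on nuclei. All received tamoxifen (Tam) at about 3 months of age and hippocampus was taken 3 to 4 weeks later. Translating ribosome affinity purification (TRAP) then gave, for each of 3 animals (201, 207 and 208), an Input library from the cleared homogenate and a Positive library from the ribosomes held by anti-GFP antibody. Both fractions therefore share genotype and treatment and differ by the pulldown, and the promoter limits the tagged cells to those that use Cx3cr1, which include macrophages other than microglia. No library from mice without the tag was analysed here, so the level that beads alone would hold was not measured.

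The 9 genes are known mainly from neurons and are not markers of microglia. Excitatory synapses on dendritic spines carry a postsynaptic density, a protein mesh in which DLG4 (PSD-95) anchors glutamate receptors, SHANK proteins form the deeper layer and HOMER1 links SHANK to metabotropic receptors. Calcium entering the spine binds calmodulin, which activates the kinase CaMKII (its alpha subunit encoded by Camk2a, its beta subunit by Camk2b), while neurogranin (Nrgn) holds calmodulin at rest. MAP2 is the microtubule-associated protein of dendrites, and dendrin (Ddn) is a protein of dendrites and the postsynaptic density. mRNAs of several of these genes are carried into dendrites in RNA granules and translated near synapses.

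A class of short elements in 3′ UTRs, the cytoplasmic polyadenylation elements bound by CPEB proteins, is among the signals described for dendritic mRNAs. For this reason 1 stretch of 30 bases with a match to the letters of such an element is shown for each of the 5 members printed here. Every match is in capitals, read 5′ to 3′ on the gene's strand from GRCm38 within the 3′ UTR of the GENCODE M21 transcript used.
Shank3 (chr15:89559766-89559795, plus strand): tttctagctttTTTTAATaaaaaataaata
Dlg4 (chr11:70045334-70045363, plus strand): caTTTTATttgaTTTTATttttttgggaaa
Map2 (chr1:66439131-66439160, plus strand): taattgttacaaTTTTATataaaaaattaa
Homer1 (chr13:93403705-93403734, plus strand): ttctttagtatgTTTTATatttatgtgtat
Nrgn (chr9:37544545-37544574, minus strand): ggctggaaggtTTTTAATctctgcgtgtgc

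The letters searched were TTTTAT and TTTTAAT, on the sense strand only, and neither contains the other. The last match ended 478 bases from the transcript end in Shank3 and 181 in Dlg4. It ended 40 bases away in Map2, 68 in Homer1 and 65 in Nrgn. Binding by CPEB proteins was not measured. At least 1 match lay in the 3′ UTR of 6 of the 9 members, the 5 above and Camk2a, and none in Camk2b, Shank1 and Ddn. Of the 13673 tested genes with a transcript, 60.07% held a match, so the share among the members was near that of genes in general. Members with a match were found both among those lower in Positive (Map2, Homer1, Dlg4) and those that were not (Camk2a, Shank3, Nrgn). The 3′ UTR of the Map2 transcript used was 181 bases and that of Camk2a 3372 bases, and other isoforms of these genes end elsewhere.

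The libraries held 14879734 to 17757918 reads, and all 8 defining microglial markers were higher in Positive, with a median log2 fold change of 4.62. Their summed level was 4291 to 4705 scaled reads in Input and 83860 to 123300 in Positive, a scaled read being a raw read over the size factor of its library. All 6 oligodendrocyte markers were lower (43530 to 48410 against 9366 to 12100), and all 6 endothelial markers were higher (1354 to 1726 against 3746 to 7441). Of 6 astrocyte markers 1 was higher and 2 were lower, or 4 with the animal as a block, and with total count scaling 0 were higher and 5 lower. Their sum (48460 to 52110 against 49280 to 58340) was carried by Slc1a2, the higher one, and of the 138 astrocyte genes of the study's supplement 3 were higher and 85 lower, with a median of -0.42. Principal neuron markers, with 1 of 10 higher and 3 lower, summed to 37700 to 41790 in Input and 35550 to 43020 in Positive, and interneuron markers, with 5 of 10 higher and 1 lower, to 13040 to 14200 and 15340 to 16730. No marker was at 0 in every Input library. The part of these cell types in the differences of the members was not tested. Both fractions of an animal came from the same homogenate, so the marker levels describe the RNA of a fraction and not cell numbers.

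The members did not move as 1 group. Map2, Homer1, Ddn, Shank1 and Dlg4 were lower in Positive, at 67.9% to 79.1% of their Input level, Camk2a was higher at 123%, and Camk2b, Shank3 and Nrgn did not pass the test (quasi-likelihood test of edgeR adjusted over all genes, threshold 0.05, n = 3 per fraction). Of the 15344 genes tested, 46% were called, 24% higher and 22% lower, so 5 of 9 lower was above and 1 of 9 higher below the share among all genes. Among the 2219 genes with at least the Input scaled reads of Homer1, the lowest member by that measure, 22.2% were higher and 27.2% lower. The shares among all genes are also the background for the counts of every gene list in this report. The median log2 fold change of the 9 members was -0.34, against -0.01 for all genes tested. For 8 of the 9 members the 3 Input and 3 Positive libraries did not overlap, which held for 56.5% of all genes, 29% with Positive above Input (3 members) and 27.6% with Positive below (5 members). The called changes lay between -0.56 and 0.30 on the log2 scale.

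**Figure D1:**
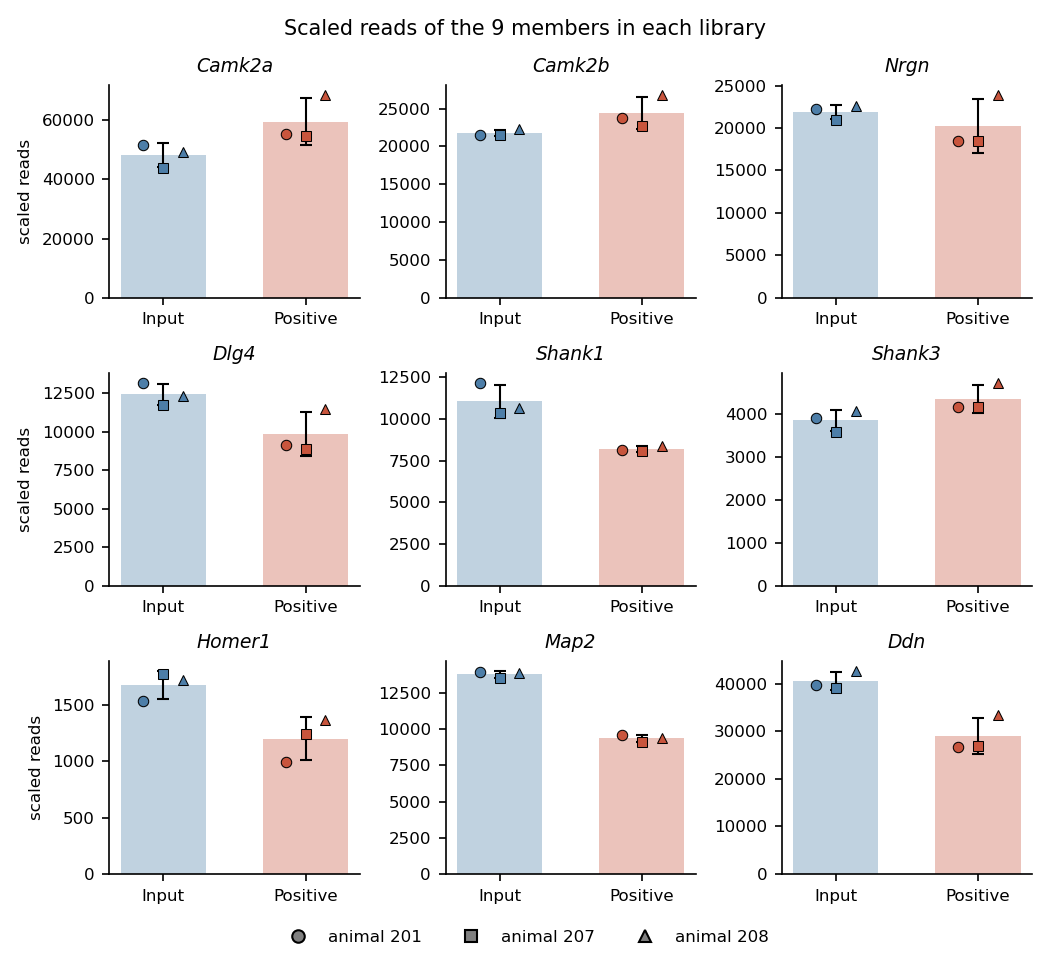
Scaled reads of each member in the 3 Input and 3 Positive libraries, with bars for the mean, error bars for the SD and symbols for animals 201, 207 and 208. Map2, Ddn, Shank1, Dlg4 and Homer1 have all 3 Positive libraries under all 3 Input libraries, Camk2a, Camk2b and Shank3 have them above, and Nrgn overlaps.

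Among the genes of calmodulin signalling, Camk2a (ENSMUSG00000024617, chromosome 18, 60925618 to 60988152, plus strand, mm10), the alpha subunit of CaMKII, was the second most abundant gene of the table in Input by scaled reads. It had 51820, 43850 and 49190 scaled reads in the Input of animals 201, 207 and 208, and 55370, 54660 and 68720 in Positive. All 3 Positive libraries lay above all 3 Input libraries, and the Positive library of animal 208 stood above the other two. The Input mean was 48290 ± 4061 and the Positive mean 59580 ± 7918 (SD, n = 3). The log2 fold change was 0.30 ± 0.12 (SE, adjusted p = 0.0479 by edgeR). The log2 ratio within an animal was 0.096, 0.32 and 0.48. The call was close to the threshold. The call was made under 8 of 19 alternatives. Among those where it was lost were total count scaling (0.23, adjusted p-value 0.124), the authors' size factors (0.29, 0.0807), limma (0.28, 0.132), the fits without both libraries of any 1 animal, and those without the Input library of animal 201 (0.36, adjusted p-value 0.0729), 207 (0.24, 0.219) or 208 (0.32, 0.131) or the Positive library of animal 208 (0.19, 0.0567).

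Camk2b (ENSMUSG00000057897, chromosome 11, 5969644 to 6066362, minus strand), the beta subunit, had 21520, 21570 and 22310 scaled reads in Input and 23710, 22730 and 26860 in Positive. The fractions did not overlap, but the difference was small against its error, with a log2 fold change of 0.16 ± 0.092 (SE), a 95% interval of -0.036 to 0.36 (adjusted p = 0.164 by edgeR). Nrgn (ENSMUSG00000053310, chromosome 9, 37544492 to 37552904, minus strand), which binds calmodulin when calcium is low, had 22180, 20990 and 22590 scaled reads in Input and 18430, 18440 and 23930 in Positive. In animals 201 and 207 Positive was under every Input library, and in animal 208 it was above every one. The log2 fold change was -0.11 ± 0.11 (SE) with a 95% interval of -0.35 to 0.13 (adjusted p = 0.424 by edgeR). Without the Positive library of animal 208 Nrgn was called lower, at -0.25 (adjusted p = 0.00811 by edgeR).

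Of the scaffold genes, Dlg4 (ENSMUSG00000020886, chromosome 11, 70017085 to 70045532, plus strand), encoding PSD-95, had 13180, 11770 and 12330 scaled reads in Input and 9126, 8887 and 11480 in Positive. The Positive library of animal 208 came close to the lowest Input library without reaching it. The log2 fold change was -0.34 ± 0.11 (SE, adjusted p = 0.0189 by edgeR), and the ratio within an animal was -0.53, -0.41 and -0.10. The call was held under 12 of 19 alternatives. Among those where it was lost were the fits without the Input library of animal 201 (-0.29, adjusted p-value 0.0833), without the Input library of animal 208 (-0.34, adjusted p-value 0.0619), and without the Positive library of animal 201 (-0.29, adjusted p-value 0.0658) or 207 (-0.27, adjusted p-value 0.0743), each by edgeR.

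Shank1 and Shank3, which encode scaffold proteins of the same family, lay on opposite sides of Input. Shank1 (ENSMUSG00000038738, chromosome 7, 44310253 to 44360572, plus strand) had 12160, 10350 and 10650 scaled reads in Input and 8137, 8091 and 8402 in Positive, a tight group well under Input. Its log2 fold change was -0.43 ± 0.086 (SE, adjusted p = 0.00138 by edgeR), and it was called under each of the 19 alternatives. Shank3 (ENSMUSG00000022623, chromosome 15, 89499623 to 89560261, plus strand) had 3898, 3590 and 4071 scaled reads in Input and 4170, 4158 and 4728 in Positive. Its Positive libraries were all higher but its log2 fold change of 0.18 ± 0.084 (SE, 95% interval -0.0052 to 0.36) had an edgeR adjusted p-value of 0.103, and no alternative called it.

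Homer1 (ENSMUSG00000007617, chromosome 13, 93299635 to 93405129, plus strand) was the least abundant member by scaled reads. It had 1534, 1770 and 1718 scaled reads in Input and 992.2, 1239 and 1364 in Positive. Each Positive library was under each Input library, and the ratios were -0.63, -0.51 and -0.33. The log2 fold change was -0.48 ± 0.11 (SE, adjusted p = 0.00316 by edgeR), and all 19 alternatives called it. The counts are per gene, so the long forms of HOMER1 and the short, activity-induced form that lacks the coiled coil were not separated.

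Map2 and Ddn were both lower, and Map2 was the most evenly lowered of all members. Map2 (ENSMUSG00000015222, chromosome 1, 66175273 to 66442583, plus strand) had 13940, 13510 and 13890 scaled reads in Input and 9579, 9084 and 9418 in Positive. The libraries of a fraction lay within a narrow band, and the log2 ratio of -0.54, -0.57 and -0.56 was almost the same in the 3 animals. The mean fell from 13780 ± 234 to 9360 ± 253 (SD, n = 3). The log2 fold change was -0.56 ± 0.078 (SE, adjusted p = 8.34e-05 by edgeR), and this p was the lowest among the members. Ddn (ENSMUSG00000059213, chromosome 15, 98803782 to 98807925, minus strand), the fifth most abundant gene in Input by scaled reads, had 39740, 39100 and 42650 there and 26760, 26880 and 33400 in Positive. All Positive libraries were lower, that of animal 208 the least so. Its log2 fold change was -0.48 ± 0.11 (SE, adjusted p = 0.00282 by edgeR), and the call was lost only without both libraries of animal 201 (-0.44, edgeR adjusted p-value 0.0604).

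**Figure D2:**
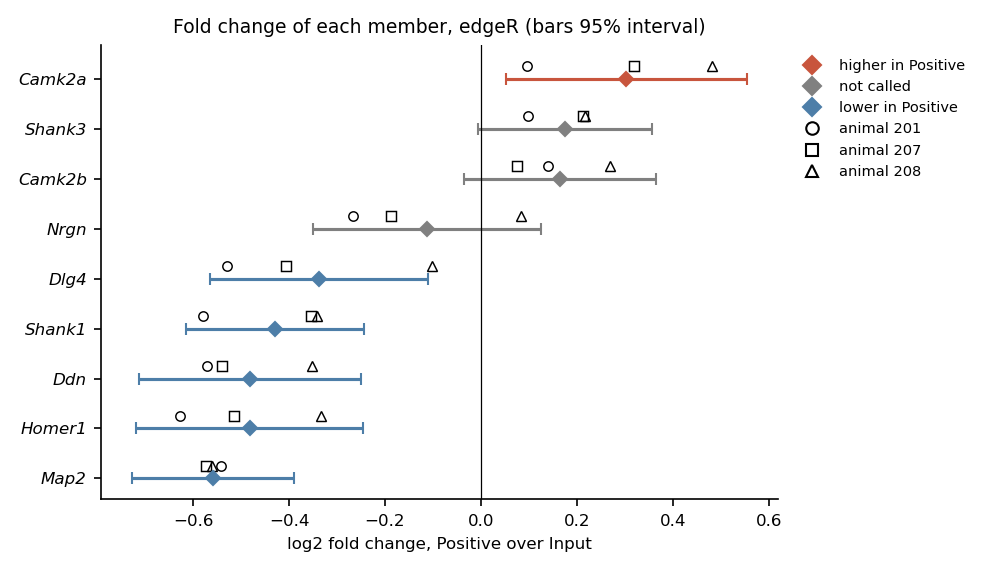
Log2 fold change of Positive over Input for each member, with diamonds and bars for the edgeR estimate and its 95% interval and open symbols for the ratio within each animal. The estimates run from -0.56 for Map2 to 0.30 for Camk2a, and the 3 animals of Map2 nearly coincide.

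Levels can be compared between genes only per length of transcript. In Input, scaled reads per kb of the transcript used were 15090 ± 573 for Nrgn, 10810 ± 505 for Ddn, 9716 ± 817 for Camk2a, 5419 ± 110 for Camk2b, 3564 ± 203 for Dlg4, 2202 ± 37.3 for Map2, 1125 ± 98.7 for Shank1, 605 ± 44.9 for Homer1 and 540 ± 34.2 for Shank3 (SD, n = 3). The libraries of neighbours in this order were well apart, except those of Ddn and Camk2a, which nearly met, and those of Homer1 and Shank3, which overlapped. In Positive both of these pairs changed places, with 11990 ± 1593 for Camk2a against 7746 ± 1014 for Ddn, and 610 ± 45.7 for Shank3 against 433 ± 68.4 for Homer1. The order of the other members was the same in both fractions. The 5 lower members had transcripts of 2765 to 9826 bases and a GC content of 39.75% to 61.45%, and the other members 1453 to 7131 bases and 53.28% to 61.69%, so the ranges overlapped. The use of 1 annotated transcript per gene affects each of these levels per kb.

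A ratio of reads within 1 library needs no scaling between libraries. Relative to Camk2a, Ddn had 0.767, 0.892 and 0.867 reads in Input and 0.483, 0.492 and 0.486 in Positive, so the fractions were far apart and the Positive libraries almost equal. Dlg4 had 0.254, 0.269 and 0.251 in Input against 0.165, 0.163 and 0.167, and Nrgn had 0.428, 0.479 and 0.459 against 0.333, 0.337 and 0.348, again with no overlap. The mean log2 change of the ratio to Camk2a was -0.86 ± 0.21 for Map2, -0.79 ± 0.058 for Homer1, -0.79 ± 0.11 for Ddn, -0.72 ± 0.087 for Shank1, -0.65 ± 0.072 for Dlg4 and -0.42 ± 0.074 for Nrgn (SD, n = 3), each lower in 3 of 3 animals. Camk2b, at -0.14 ± 0.16, and Shank3, at -0.12 ± 0.14, were lower in 2 of 3. Camk2a had the highest log2 fold change of the members (0.30), so each ratio to it also holds the rise of Camk2a. The scaled reads of Nrgn itself overlapped between the fractions, with a log2 fold change of -0.11. These ratios are descriptions, and 3 against 3 libraries cannot give an exact permutation p-value under 0.1.

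The members were then set beside other neuronal RNA of the same animal. For 8 of the 9 members the ratio of Positive to Input was highest in animal 208, Map2 being the exception, and the 99-gene neuron list taken from the study's supplement had median log2 ratios of -0.093, -0.051 and 0.15 in animals 201, 207 and 208. After this median was subtracted, Ddn was at -0.48, -0.49 and -0.51 and its SD over animals was 0.014 in place of 0.12. The SD became smaller for 7 of the 9 members. It became larger for Map2, 0.14 in place of 0.016, and for Shank3, 0.10 in place of 0.068. Relative to the neuron list, Map2 was at -0.56, Homer1 at -0.50, Ddn at -0.49, Shank1 at -0.43, Dlg4 at -0.35 and Nrgn at -0.13, each below it in 3 of 3 animals. Camk2a at 0.30, Shank3 at 0.17 and Camk2b at 0.16 were above it in 3 of 3. The place of Nrgn depended on the reference. Nrgn was below the median of the presynaptic genes in 3 of 3 animals (-0.093). It was below that of the other postsynaptic density genes in 2 of 3 (-0.042). Against the soma and axon genes (-0.05) and the principal neuron markers (0.0066), Nrgn was below the median in 1 of 3. With size factors computed from the neuron list alone, Camk2b was also called higher (0.18, edgeR adjusted p-value 0.0395), so 2 members were higher and 5 lower. The astrocyte markers had median log2 ratios of -0.071, -0.22 and -0.76 in the 3 animals, lowest in animal 208, and their part in the spread of the members was not tested.

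**Figure D3:**
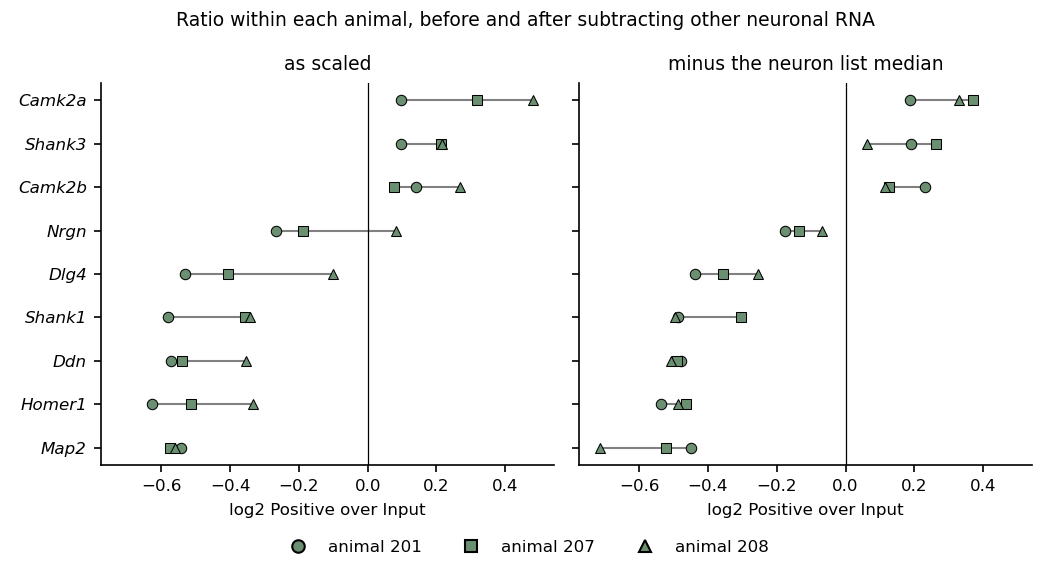
Log2 ratio of Positive to Input within each animal for each member, as scaled on the left and after subtracting the median of the neuron list in that animal on the right. The 3 animals of Ddn draw together on the right, from an SD of 0.12 to 0.014, and those of Map2 and of Shank3 draw apart.

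Summed over the 9 members, reads were 0.675, 0.654 and 0.694 of those of 22 presynaptic genes in Input and 0.629, 0.626 and 0.641 in Positive. The Positive libraries were lower, with a mean log2 change of -0.094 ± 0.027 (SD, n = 3). Relative to the neuron list the sums overlapped, at 0.441, 0.416 and 0.451 in Input and 0.430, 0.429 and 0.462 in Positive, a change of 0.015 ± 0.043. Camk2a and Ddn, the largest terms of these sums, moved in opposite directions.

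Both genes of CaMKII inhibitors were lower in Positive. Camk2n1 encodes a small protein that inhibits CaMKII, and its mRNA is itself found in dendrites. It had 16450, 15360 and 15230 scaled reads in Input and 7100, 7645 and 8953 in Positive, with no overlap and a log2 fold change of -0.99 ± 0.098 (SE, edgeR adjusted p-value 3.65e-06). The related inhibitor gene Camk2n2 had 1489, 1142 and 1058 in Input and 645.7, 645.1 and 740.6 in Positive, with a log2 fold change of -0.86 ± 0.12 (SE, edgeR adjusted p-value 9.15e-05). Per read of Camk2a in the same library, Camk2n1 had 0.317, 0.350 and 0.310 in Input and 0.128, 0.140 and 0.130 in Positive, a mean log2 change of -1.29 ± 0.040 (SD, n = 3). The other kinase subunits did not pass the test, with log2 fold changes of -0.19 for Camk2d (lower in 3 of 3 animals) and 0.094 for Camk2g, and no test compared the subunits with the inhibitors. Neither did Calm2 (0.040) and Calm3 (-0.055), which encode calmodulin, the activator.

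The calmodulin list of 20 genes, members left out, had 3 higher and 3 lower with a median log2 fold change of -0.040. The lower genes were Camk2n1, Camk2n2 and Gap43 (-0.57), which encodes a growth-cone protein that binds calmodulin as neurogranin does. The higher ones were Camk1 (1.60), Itpkb (0.58) and Camk1d (0.53). Pcp4, another small calmodulin-binding protein gene, was at -0.32 (adjusted p = 0.0695 by edgeR), and was called lower with the animal as a block (0.0277). With that block 4 of the 20 genes were higher and 5 lower, and without the Positive library of animal 208 there were 3 higher and 6 lower.

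**Figure D4:**
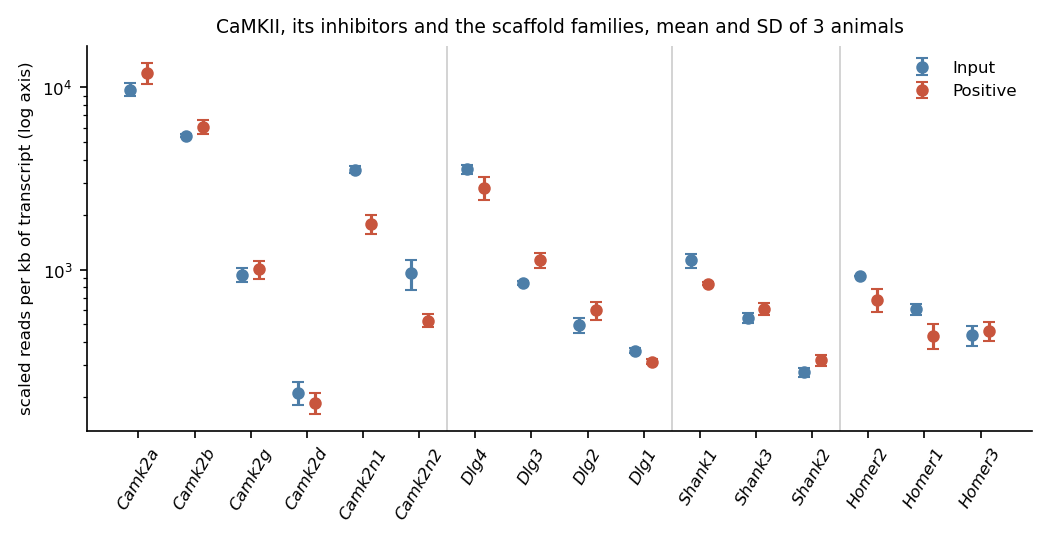
Scaled reads per kb of transcript (log axis, mean and SD of 3 animals) in Input and Positive for the CaMKII subunits and inhibitors and for the Dlg, Shank and Homer families. Camk2n1 drops from 3528 to 1777 while Camk2a goes from 9716 to 11990, and Dlg4 and Shank1, the most abundant of their families, are lower in Positive.

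Scaffold families were also mixed inside. Dlg4 was lower while Dlg3 (0.42 ± 0.084 SE, edgeR adjusted p-value 0.0014) and Dlg2 (0.27 ± 0.099, 0.0417) were higher, and Dlg1 (-0.20 ± 0.074, 0.0417) was lower. These genes encode membrane-associated guanylate kinases like PSD-95, and per kb Dlg4 was the most abundant of them in both fractions. Shank2 was higher, at 0.23 ± 0.081 (SE, edgeR adjusted p-value 0.037), so of 3 Shank genes 1 was called lower and 1 higher. Homer2 was lower like Homer1, at -0.43 ± 0.10 (SE, edgeR adjusted p-value 0.00364), and Homer3 was at 0.082 without passing the test. Of the 19 alternatives, all called Dlg3 and Homer2, 9 called Dlg2, 8 Shank2 and 7 Dlg1. The Dlg2 call was lost without the Input library of animal 207 or 208 or the Positive library of 207 or 208, that of Shank2 without any 1 Input library or the Positive library of 207, and that of Dlg1 without any 1 library. No test compared 1 family gene with another.

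Over the list of 32 other postsynaptic density genes, 9 were higher and 11 lower, with a median log2 fold change of -0.085. This was 28.1% higher and 34.4% lower, against 24% and 22% of all genes tested. The lowest were Begain (-0.69), which encodes a partner of PSD-95, and Dynll2 (-0.59), a dynein light chain that binds the scaffold. The highest were Ppp1r9a (0.86), encoding neurabin, and Tanc2 (0.57). Ppp1r9b, which encodes the related spine protein spinophilin and was the most abundant of the list in Input, was lower (-0.35, edgeR adjusted p-value 0.00912), and Agap2, next in abundance, was at -0.14 without a call. Without the Positive library of animal 208, 7 were higher and 12 lower. Without the Input library of animal 201, 207 or 208 there were 7, 6 and 6 higher and 7, 7 and 6 lower. Without both libraries of animal 201 there were 7 higher and 4 lower, and without those of animal 207, 6 and 3. With limma 6 were higher and 7 lower.

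Of 11 other mRNAs described in dendrites, 5 were lower and 0 higher, with a median log2 fold change of -0.26. This was 45.5% lower, against 22% of all genes tested, of which 24% were higher. The lower genes were Camk2n1, Psd (-0.38), Ppp1r9b, Map1a (-0.31) and Dlgap3 (-0.31), each also in another of the lists used here. At an unadjusted p-value under 0.05 the higher count was also 0, as it was by DESeq2. Arc, the activity-induced gene whose mRNA travels along dendrites, was at 0.17 and Bdnf at 0.0013, neither called. The count rested on the animals kept, since 8 were lower without the Positive library of animal 208, 3 without the Input library of animal 208, 3 without the Positive library of animal 207 (with 1 higher), and 1 without both libraries of animal 201 or of animal 207.

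**Figure D5:**
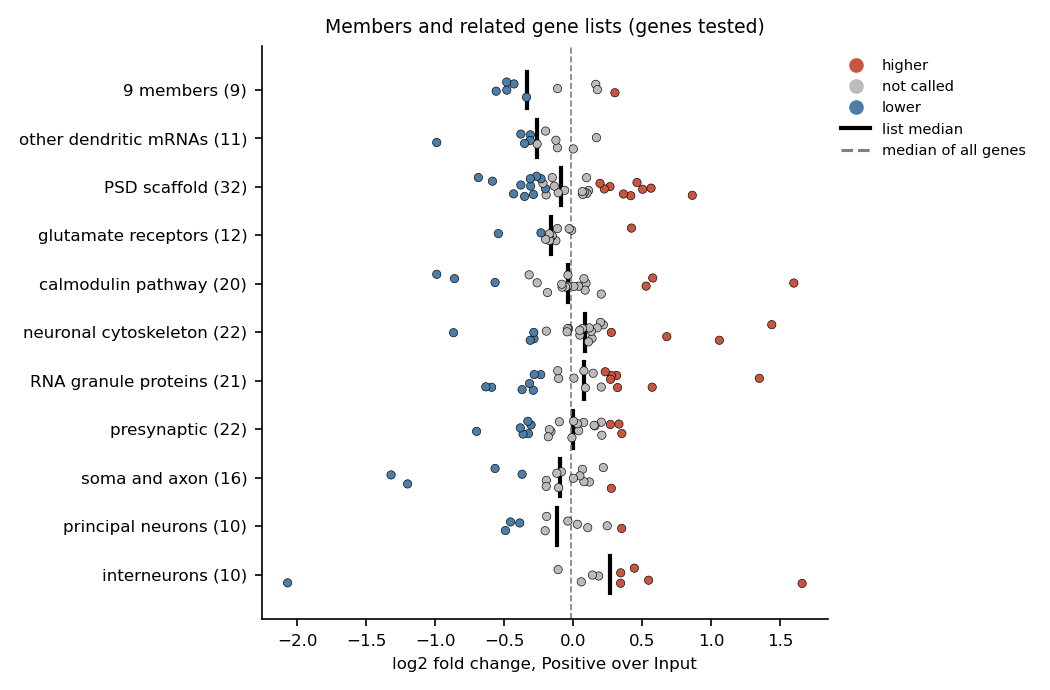
Log2 fold change of Positive over Input for the 9 members and for the genes of 10 related lists, coloured by call, with black bars for list medians and a dashed line for the median of all genes. The members and the other dendritic mRNAs have medians of -0.34 and -0.26. The list of other postsynaptic density genes has a median of -0.085 and the presynaptic list one of -0.0029.

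Glutamate receptor genes, whose proteins the scaffold members anchor, had 1 of 12 higher and 2 lower, with a median log2 fold change of -0.16. Grin2b, an NMDA receptor subunit, was higher (0.42, edgeR adjusted p-value 0.019), and the AMPA receptor subunits Gria4 (-0.54) and Gria3 (-0.23) were lower. Gria1 (-0.13) and Gria2 (-0.20), the most abundant of them in Input, were not called. The libraries of Grin2b overlapped, and its call was lost with limma and without the Input library of animal 201 or 207, the Positive library of 207 or both libraries of 207. The count of lower genes was 7 without the Positive library of animal 208 and 5 with total count scaling. It was 1, with Gria4 left, without the Input library of animal 207 or 208 or the Positive library of animal 201 or 207.

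Among 22 genes of the neuronal cytoskeleton, 4 were higher and 4 lower, with a median log2 fold change of 0.089, so Map2 lay far from the middle of it. The relatives of Map2, Map4 (-0.040) and the axonal tau gene Mapt (0.11), were not called. Map1a and Map1b (-0.28), which encode other microtubule-associated proteins, were lower. Kif5a, encoding a kinesin that carries RNA granules and other cargo along microtubules, was the lowest at -0.87 ± 0.10 (SE, edgeR adjusted p-value 1.54e-05). The spectrin gene Sptbn1 was the highest at 1.44. The lower count was 2 without the Input library of animal 201 or 207, and 1 without the Input library of animal 208 or the Positive library of animal 207.

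The genes of proteins that bind and carry dendritic mRNAs had 7 of 21 higher and 7 lower, with a median log2 fold change of 0.078. All 4 CPEB genes were lower, at -0.32 for Cpeb4, -0.29 for Cpeb1, -0.28 for Cpeb2 and -0.24 for Cpeb3. The fragile X family was higher, at 0.23 for Fmr1, 0.28 for Fxr2 and 0.32 for Fxr1. The Staufen genes went apart, with Stau1 at 0.57 and Stau2, the form known from neurons, at -0.59. Purb was the lowest at -0.63 and Cyfip1 the highest at 1.35, while its relative Cyfip2, the most abundant in Input, was at 0.20 and not called. Of the 19 alternatives, 17 called Cpeb4, 15 Cpeb2, 14 Cpeb1 and 10 Cpeb3, and all called Fxr1 while 10 called Fmr1. Without both libraries of animal 207 the list had 4 higher and 2 lower, with none of the CPEB genes among them, and without those of animal 201 it had 6 higher and 3 lower. The CPEB and fragile X genes were picked out after their values were seen.

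The pattern of the members over the 6 libraries was compared with that of 6887 genes of at least 500 scaled reads, by the Euclidean distance between centred log2 values and the median of the 9 members. Among the closest genes were B630019K06Rik (distance 0.0563), Cacnb4 (0.0683), D430041D05Rik (0.0722), Dnal1 (0.0738), Edil3 (0.0739), Ube2e2 (0.0746) and Kctd13 (0.075). The log2 fold changes of these 7 were between -0.28 and -0.19, and 3 of them (Cacnb4, Dnal1 and Kctd13) were called lower. The median they were matched to lies between the lower and the higher members and describes neither group alone.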

How the data were processed

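Hippocampal RNA from 3 mice was measured as an Input and a Positive TRAP library each (6 libraries), grouped by the fraction label. The authors aligned directional poly(A) read pairs to mm10 in Strand NGS. The deposited raw columns are expected counts per gene, which need not be whole, and how mates were counted is not given in the sources used here. The deposited normalized columns are log2 values after DESeq normalization per the labels, and were used in 1 alternative. The deposited table held 15388 genes that reached 20 reads in all 3 libraries of a fraction.

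Expected counts were rounded and tested with edgeR 4.0.16 (glmQLFit, glmQLFTest) in R 4.3.3, with median-of-ratios scaling (RLE), without pairing the fractions by animal. Genes above 20 scaled reads in all 3 libraries of either fraction were kept, which left 15344 of them, and Benjamini-Hochberg adjustment ran over all of these. SE came from the F statistic. Reads carried no molecular identifiers. Alternatives used limma 3.58.1, DESeq2 1.42.0, other scalings and filters, an animal block and left-out libraries.

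Animal numbers pair the fractions per the labels. Deviations from the fraction means correlated over genes within animals 201, 207 and 208 with r of 0.194, 0.058 and 0.12, above those with other animals.

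The members and gene lists were chosen with earlier results of these data known. Named genes are the members, their family relatives and the other microtubule-associated protein genes Map1a and Map1b. From each list they are also the 2 most abundant in Input by scaled reads and the 2 highest and 2 lowest called. A few genes that this rule took are left out of the text. Calm2, Camk1d, the Cpeb genes, Fmr1, Fxr1, Fxr2, Arc, Bdnf and the other genes outside this rule were chosen after their values were seen. Transcripts and lengths are from GENCODE M21 (GRCm38, the assembly of mm10), 1 per gene.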

Additional observations from a re-analysis of the deposited data

How the results depend on the processing

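Of the values of the 9 members under the 19 alternatives, 150 kept direction and side of the threshold, 19 lost the call and 2 gained one, and none turned direction. Shank1, Map2 and Homer1 were called throughout. Under a replicate block for the animal, the same 6 members were called (Camk2a 0.30, edgeR adjusted p-value 0.0425) and 7566 genes in all, and among the members the pairing changed no call. The number of members higher, 1 as reported, was 0 with total count scaling, with the block and total count scaling, with the authors' size factors and with limma on the deposited values, and 2 with scaling on the neuron list (Camk2b at 0.18). In the 4 settings with none higher Camk2a was at 0.23, 0.22, 0.29 and 0.28, and Dlg4 lost its call with limma (-0.36). When 1 library or 1 animal was left out, the number called ranged from 3 to 6, the number higher from 0 to 1 and the number lower from 3 to 6. In these fits Camk2a ranged from 0.19 to 0.41, Dlg4 from -0.47 to -0.24, Ddn from -0.59 to -0.43 and Nrgn from -0.25 to -0.038. Genes called ranged from 4328 (without animal 207) to 7256 (without the Positive library of animal 208), against 7054. The read ratio of the members to the presynaptic list changed by -0.14 (log2) with geometric means and by 0.015 against the neuron list. Total count scaling moved the median log2 fold change of all genes by -0.077, and 41.6% of called genes were then higher, against 52.2%. Counting of mates and the use of 3 animals limit the precision, and the causes of lost calls were not tested.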

Other observations

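Presynaptic genes, used as a yardstick for the members, had 3 of 22 higher and 6 lower in Positive, with a median log2 fold change of -0.0029. This was 13.6% higher and 27.3% lower, against 24% and 22% of all genes tested. The lowest were Pclo (-0.70) and Rims1 (-0.38), and the synaptic vesicle gene Syn1 (0.35) and the fusion ATPase gene Nsf (0.33) were the highest. Cplx2 (0.15) and Snap25 (0.21), the most abundant in Input, were not called. Without the Positive library of animal 208, 10 were lower and 2 higher, and the higher count was 0 without the Input library of animal 207 and 1 without that of animal 208.

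Among 16 genes of neuronal somata and axons, 1 was higher and 4 were lower, with a median log2 fold change of -0.095. The lowest were Meg3 (-1.32) and Snhg11 (-1.20), both long noncoding RNAs and the most abundant of that list in Input, and Nefm (0.28) was the higher one. Interneuron markers spread widely, from Pvalb, at 701 scaled reads in Input against 166 in Positive (-2.07), to Vip, at 202 against 639 (1.66). Of the markers of principal neurons, Wfs1 (-0.49) and Fibcd1 (-0.45) were the lowest, and all 19 alternatives called both. Prox1 (0.35) was the higher one. Its libraries overlapped, and 11 alternatives called it, the call being lost with total count scaling, with limma, and without the Input library of animal 201 or 207, the Positive library of animal 208 or both libraries of any 1 animal.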
